A study of Homo sapiens with 60 samples.

Results

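Metallothioneins are small cysteine-rich proteins that bind zinc and copper, and 7 of their genes were followed together with SLC30A1, which encodes the zinc exporter ZnT1 of the plasma membrane, and MTF1, which encodes the zinc-sensing factor that drives them. The 9 genes were taken by symbol from a table of 60675 genes. The cells were HT29, an established human colorectal adenocarcinoma line, treated for 24 h and sequenced as messenger RNA in 60 libraries. The treatments were the phosphoinositide 3-kinase inhibitors wortmannin and LY294002 at 10 µM each, and water extracts of Poria Cocos, Atractylodis Rhizoma, Glycyrrhizae Radix (licorice root), Panax Ginseng, Angelicae Gigantis Radix and Paeoniae Radix at 20, 100 and 500 µg/mL, against vehicle. The vehicle was 0.1% DMSO per the labels and 2% DMSO per the series text. Each of 18 groups had 3 libraries and each of the 3 Paeoniae groups had 2. All titles name the same batch, but the first numbers of the sample codes differ and so form 4 code sets. Set 1 holds vehicle with both inhibitors, set 2 Poria with Atractylodis, set 3 Glycyrrhizae with Ginseng and set 4 Angelicae with Paeoniae. The vehicle codes alone carry the letter A before the number, so whether vehicle truly shares a set with the inhibitors is not certain. What the number stands for is not known here, and in a comparison with vehicle an extract and its code set cannot be told apart. The comparison of 500 with 20 µg/mL of an extract has both groups in the same set.

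Zinc inside a cell is kept in a narrow range by importers of the SLC39A (ZIP) family, exporters and vesicle loaders of the SLC30A (ZnT) family, and metallothioneins, which hold the metal ions in clusters of cysteines. When free zinc rises, MTF1 binds it through its zinc fingers, enters the nucleus and acts on metal response elements in the promoters of metallothionein genes and SLC30A1. Cadmium, copper and oxidants can act on the same system, and glucocorticoids raise some metallothioneins through their own receptor. In intestinal cells the system buffers the metal taken up from food.

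Letters that match the core of the metal response element were looked for in the promoters of the genes that the values turn on. These were MT2A and MT1X, whose levels moved together between replicate libraries, and MT1H, which was hardly detected. The last was SLC30A1, which was not shown to move with MT2A and MT1X between replicate libraries. The sequences are the 250 bases before the RefSeq start (GRCh38.p14), 5′ to 3′ on the strand of the gene, with the matches in capitals. The core was written as TGCACNC or TGCGCNC and sought on both strands, and none of the matches shown overlap each other.
MT2A: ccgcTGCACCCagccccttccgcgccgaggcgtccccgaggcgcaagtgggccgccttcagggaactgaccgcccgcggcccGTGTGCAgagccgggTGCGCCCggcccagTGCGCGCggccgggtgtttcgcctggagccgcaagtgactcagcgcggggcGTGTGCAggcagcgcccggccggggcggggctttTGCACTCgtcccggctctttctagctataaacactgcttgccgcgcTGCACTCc
MT1X: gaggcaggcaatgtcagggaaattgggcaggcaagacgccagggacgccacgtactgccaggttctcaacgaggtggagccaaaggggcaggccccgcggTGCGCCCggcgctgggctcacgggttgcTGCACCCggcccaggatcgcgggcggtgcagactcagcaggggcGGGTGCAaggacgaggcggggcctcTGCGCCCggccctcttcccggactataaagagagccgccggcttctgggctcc
MT1H: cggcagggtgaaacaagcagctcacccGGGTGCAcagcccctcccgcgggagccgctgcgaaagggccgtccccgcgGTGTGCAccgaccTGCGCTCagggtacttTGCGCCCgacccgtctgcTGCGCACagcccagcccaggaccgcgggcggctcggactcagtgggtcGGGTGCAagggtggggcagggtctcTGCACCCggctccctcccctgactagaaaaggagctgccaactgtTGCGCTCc
SLC30A1: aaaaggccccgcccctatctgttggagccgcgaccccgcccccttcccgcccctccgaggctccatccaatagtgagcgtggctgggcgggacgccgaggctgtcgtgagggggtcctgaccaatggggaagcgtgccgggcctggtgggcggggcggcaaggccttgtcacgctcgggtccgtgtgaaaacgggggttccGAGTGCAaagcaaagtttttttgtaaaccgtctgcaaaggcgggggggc
These windows lie at chr16:56608334-56608583 (plus strand), chr16:56682220-56682469 (plus strand), chr16:56669564-56669813 (plus strand) and chr1:211579162-211579411 (minus strand). The window of MT2A lies within the gene as GENCODE 29 draws it, and that of MT1X overlaps its start, because these RefSeq starts are farther downstream. The window of SLC30A1 lies wholly upstream of the start that GENCODE 29 draws (211578742), because its RefSeq start is farther upstream. The bases just before that GENCODE start were not searched, so the count for SLC30A1 leaves them out. MT1H held 8 matches, MT2A 7, MT1X 4, SLC30A1 1 and MTF1 0. At least 1 match stood in 24.8% of the 35116 promoters of the same length, at least 4 in 0.370%, at least 7 in 0.0313% and at least 8 in 0.0171%. RefSeq promoters were matched for 5 of the 9 genes, and MT1E, MT1F, MT1G and MT1M are named only.

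The label of the cells was checked first. Of 10 markers of colon epithelium, 9 averaged above 5 CPM (read counts scaled to a common library size with TMM factors), from CDX2 at 5.07 to KRT8 at 6660 CPM, and GPA33 averaged 3.41 CPM. Markers of fibroblasts averaged at most 1.26 CPM and those of endothelium at most 1.70 CPM. Among the leukocyte markers CD68 had 6.75 CPM and CD14 3.59 CPM, while PTPRC and CD3E were near 0 (0.0241 and 0.00239 CPM). The expected counts of a library summed to between 20431980 and 35477712. Nothing in the labels ties replicates to separate cultures, so p-values measure the spread between these libraries, which may be technical.

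Nearly all metallothionein reads came from a pair of genes. MT1E (ENSG00000169715; chromosome 16, 56625475 to 56627112, plus strand, 3 exons; coordinates are GRCh38 with GENCODE 29) averaged 88.7 CPM over the 60 libraries, with a range of 60.6 to 130 CPM, and took 65.7% of the reads of the 7 genes. MT2A (ENSG00000125148; chromosome 16, 56608199 to 56609497, plus strand) averaged 42.2 CPM, with a range of 28.4 to 66.5 CPM, and took 31.1%. MT1X (ENSG00000187193; chromosome 16, 56682424 to 56684196, plus strand) followed at 3.19 CPM and 2.37% of the reads. MT1F (ENSG00000198417; chromosome 16, 56657694 to 56660698, plus strand) and MT1G (ENSG00000125144; chromosome 16, 56666731 to 56668065, minus strand) were low, at 0.605 and 0.558 CPM, which is a mean count of 15.9 and 14.6 per library. MT1H (ENSG00000205358) had 8 counts in 7 libraries and MT1M (ENSG00000205364) had 1 count in 1 library. These 2 genes were below the filter on low counts and were not tested, which left 7 members among the 16767 genes tested. SLC30A1 (ENSG00000170385; chromosome 1, 211571568 to 211578742, minus strand) averaged 42.4 CPM and MTF1 (ENSG00000188786; chromosome 1, 37809567 to 37859620, minus strand) 41.0 CPM.

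The order changes when the length of the principal transcript is taken into account. Per kilobase, MT1E had 126 CPM and MT2A 53.7 CPM, against 7.75 CPM for SLC30A1, 7.10 CPM for MT1X, 5.14 CPM for MTF1, 1.37 CPM for MT1G and 0.877 CPM for MT1F. The metallothionein transcripts are 406 to 786 bases long among the 5 genes tested, while that of SLC30A1 has 5474 bases and that of MTF1 7972 bases. The genes are close copies of each other, so shared reads were looked for: of the 100-base windows of a transcript, 19.1% of MT1X occur unchanged in the annotated gene AC026461.1 and 3.36% of MT1H in the pseudogene MT1HL1. No such window of MT1E, MT1F, MT1G, MT2A, SLC30A1 or MTF1 occurs in another gene. The level of MT1X could therefore depend on how the counting divided shared reads, which was not tested. Its values, like those of all 9 genes, were whole numbers in all 60 libraries. In bulk RNA, fewer cells that express a gene and less of its RNA per cell cannot be told apart.

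Across the 21 groups the means of the main metallothioneins varied more than those of SLC30A1 and MTF1. The SD of the group means of log2 CPM was 0.145 for MT1E and 0.202 for MT2A, against 0.0612 for SLC30A1 and 0.049 for MTF1. MT1E was highest with Poria 500 (doses are in µg/mL throughout) at 107 ± 19.6 CPM (SD, n = 3) and lowest with Paeoniae 500 at 69.8 ± 10.9 CPM (SD, n = 2), a ratio of 1.54. Between these ends stood wortmannin at 103 ± 6.51, LY294002 at 99.4 ± 12.9 and vehicle at 96.9 ± 2.32 CPM. Of the 20 pairs of neighbours in that order, 0 were farther apart than the larger of their SDs. Neighbours in an order of 21 means lie close by construction. A low count, here and in the orders below, therefore does not show that the groups are alike. MT2A had the same group at the bottom, Paeoniae 500 with 31.1 ± 3.85 CPM, and wortmannin at the top with 55.0 ± 10.9 CPM, against 46.4 ± 3.83 CPM in vehicle, and again 0 of 20 neighbours differed beyond the larger SD.

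**Figure D1:**
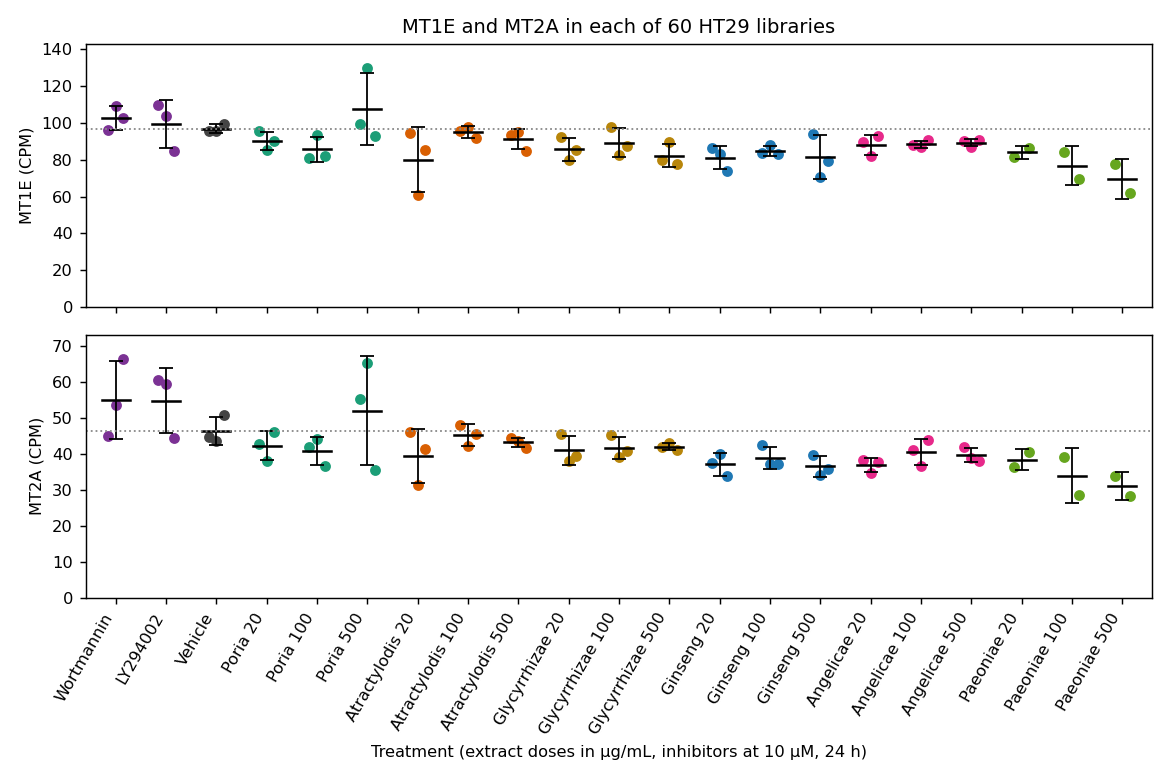
MT1E (top) and MT2A (bottom) in CPM in each of the 60 libraries (points), with the mean (bar) and SD (whisker) of each group and the mean of vehicle as a dotted line. Paeoniae 500 is the lowest group for both genes, and single libraries such as Atractylodis 20 at 60.6 CPM of MT1E stand apart from their own group.

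By dose, MT1E averaged 90.3 ± 5.13, 85.7 ± 6.75 and 107 ± 19.6 CPM at 20, 100 and 500 of Poria, and 80.1 ± 17.5, 95.3 ± 3.22 and 91.2 ± 5.53 CPM at the same doses of Atractylodis. With Glycyrrhizae it averaged 85.7 ± 6.22, 89.3 ± 7.74 and 82.3 ± 6.29 CPM, and with Ginseng 81.1 ± 6.33, 84.9 ± 2.64 and 81.4 ± 11.9 CPM. The step between 500 and 100 of Poria was larger than the larger SD of its groups, although their libraries overlapped (lowest 93.1 CPM at 500, highest 93.4 CPM at 100). With Angelicae it averaged 88.1 ± 5.57, 88.5 ± 1.92 and 89.3 ± 2.05 CPM, and with Paeoniae 84.1 ± 3.43, 76.8 ± 10.5 and 69.8 ± 10.9 CPM, the one series in which each higher dose had a lower mean. Of the 12 steps between neighbouring doses over the 6 extracts, 1 exceeded the larger SD.

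MT2A averaged 42.3 ± 4.06, 40.9 ± 3.86 and 52.1 ± 15.1 CPM at 20, 100 and 500 of Poria, and 39.6 ± 7.53, 45.4 ± 3.01 and 43.3 ± 1.3 CPM with Atractylodis. Glycyrrhizae gave 41.1 ± 4.04, 41.7 ± 3.1 and 42.0 ± 0.904 CPM, and Ginseng 37.1 ± 3.12, 39.0 ± 3.07 and 36.6 ± 2.90 CPM. The means with Poria and Paeoniae moved in opposite directions at the top dose, as they did for MT1E. Angelicae gave 36.9 ± 2.01, 40.5 ± 3.60 and 39.7 ± 2.02 CPM, and Paeoniae 38.4 ± 2.92, 33.9 ± 7.66 and 31.1 ± 3.85 CPM.

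Vehicle stood near the top of that order, in place 4 of 21 for both genes. The 3 vehicle libraries had 95.5, 95.7 and 99.6 CPM of MT1E, and all libraries of 14 of the 18 extract groups lay below the lowest of them. The same or a higher number of groups below vehicle was seen for 1.53% of all genes tested. For MT2A this held for 9 of 18 groups, against 6.76% of all genes, and for MT1F for 4 of 18, against 18.4%, for MT1G for 3 of 18, against 23.1%, and for MT1X and SLC30A1 for 1 of 18, against 42.4%. All of these rest on the same 3 vehicle libraries. The code sets differ in the same way: MT2A had a median of 50.8 CPM over the 9 libraries of set 1, which holds vehicle and the inhibitors, 43.2 CPM in set 2, 39.6 CPM in set 3 and 38.1 CPM in set 4. Extract and code set cannot be told apart here.

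The less abundant metallothioneins had other orders. MT1X was highest with LY294002 (4.69 ± 0.582 CPM), then wortmannin (4.17 ± 0.458 CPM) and Poria 500 (3.68 ± 0.255 CPM), and lowest with Paeoniae 500 (2.15 ± 0.426 CPM), a ratio of 2.18, with vehicle in place 11 of 21 at 3.08 ± 0.528 CPM. In the other extract groups it averaged between 2.67 and 3.49 CPM, and 2 of 20 neighbouring pairs were farther apart than the larger SD. MT1G and MT1F both had wortmannin at the top, with 0.840 ± 0.0911 and 0.828 ± 0.118 CPM, and Glycyrrhizae 500 at the bottom, with 0.251 ± 0.0144 and 0.411 ± 0.118 CPM. In each of these 2 orders 1 of 20 neighbouring pairs was farther apart than the larger SD.

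MT1X was the member that rose with LY294002, and its change with wortmannin did not pass the test. MT1X had 5.29, 4.65 and 4.13 CPM in the LY294002 libraries, against 3.67, 2.92 and 2.65 CPM in vehicle. All LY294002 libraries were above all vehicle libraries, which 21.6% of all genes also showed. The log2 fold change was 0.60 ± 0.16 (SE; 95% interval 0.28 to 0.93; adjusted p = 0.00217 by edgeR's quasi-likelihood test with Benjamini-Hochberg adjustment). It was the 1 member of 7 called with LY294002, in a comparison in which 39.2% of all genes were called, so that share is below the background. DESeq2 also called 1. The other members did not pass. MT2A had 60.7, 59.5 and 44.4 CPM with LY294002, against 44.6, 43.7 and 50.8 CPM in vehicle, a log2 fold change of 0.24 (interval -0.04 to 0.52), and MT1E had a log2 fold change of 0.04 (interval -0.18 to 0.26). The third LY294002 library was the low one for both genes, and without it MT2A passed (0.37, adjusted p = 0.0436).

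With wortmannin MT1X had 3.65, 4.51 and 4.35 CPM, against 3.67, 2.92 and 2.65 CPM in vehicle. The groups overlapped at 1 library on each side. The log2 fold change was 0.43 ± 0.16 (SE; interval 0.11 to 0.76) and did not pass in the edgeR fit (adjusted p = 0.0691). Same-numbered libraries of this comparison went together over genes with mean log2 CPM above 3 (r = 0.203 to 0.591). Over all genes tested r was only 0.039 to 0.108. MT1X itself did not go together by number. Less the group mean, its log2 CPM in replicates 1 to 3 was 0.2624, -0.0635 and -0.1989 in vehicle. With wortmannin it was -0.184, 0.119 and 0.065. With the replicate number as a block shared by all 60 libraries, the log2 fold change of MT1X was 0.44 with an adjusted p of 0.0236 by edgeR. It also passed without vehicle replicate 1 (0.58, adjusted p = 0.034). Of the 7 members 0 were called with wortmannin by edgeR and 0 by DESeq2, where 13.7% of all genes were called. An unadjusted p under 0.05 was seen for 1 of 7 members and 26.1% of all genes. The inhibitors were also set against each other: MT1X differed by -0.17 between wortmannin and LY294002 (interval -0.48 to 0.14; adjusted p = 0.481 by edgeR), MT2A by 0.00 (interval -0.28 to 0.27) and SLC30A1 by -0.01 (interval -0.13 to 0.10). In that comparison 0 of 7 members were called by edgeR and by DESeq2, 0 had an unadjusted p under 0.05, and 22.2% of all genes were called.

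**Figure D2:**
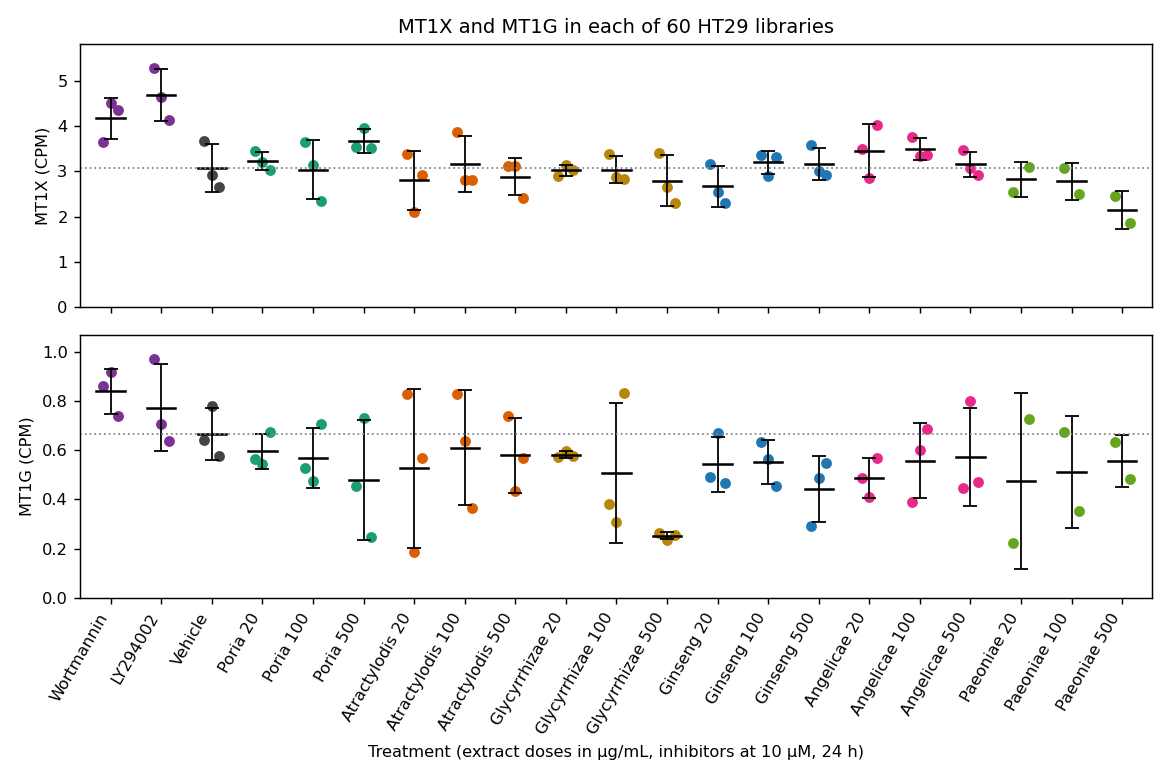
MT1X (top) and MT1G (bottom) in CPM in each of the 60 libraries (points), with the mean (bar) and SD (whisker) of each group and the mean of vehicle as a dotted line. MT1X is highest with LY294002 (mean 4.69 CPM), and the 3 libraries of Glycyrrhizae 500 lie together at the bottom for MT1G (0.235 to 0.262 CPM).

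MT1G, a low-level metallothionein, was lower with Glycyrrhizae 500 than in vehicle, a comparison that also sets code set 3 against set 1, and its difference from Glycyrrhizae 20 within the set did not pass. MT1G had 0.262, 0.235 and 0.257 CPM with Glycyrrhizae 500, against 0.640, 0.781 and 0.575 CPM in vehicle, from counts of 7, 6 and 6 against 15, 19 and 13. The groups did not overlap, and 12.2% of all genes lay wholly lower in this comparison. The log2 fold change was -1.39 ± 0.43 (SE; interval -2.26 to -0.52; adjusted p = 0.039 by edgeR), and it was the 1 member of 7 called, where 6.91% of all genes were called. The call rests on few reads: it was lost without any single one of the 6 libraries (adjusted p 0.0623 to 0.139), and DESeq2 gave a log2 fold change of -1.41 with an unadjusted p of 0.00347 and no adjusted p. Within the code set, MT1G had 0.262, 0.235 and 0.257 CPM at 500 against 0.572, 0.598 and 0.577 CPM at 20 of Glycyrrhizae, again without overlap, as 10.7% of all genes also lay wholly lower, with a log2 fold change of -1.20 ± 0.43 (SE; edgeR's adjusted p = 0.119). The libraries at 100 spread from 0.307 to 0.832 CPM.

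MT1F was also low with Glycyrrhizae, without passing the test. It had 0.598, 0.617 and 0.752 CPM in vehicle, 0.858, 0.798 and 0.645 CPM at 20, 0.414, 0.384 and 0.440 CPM at 100 and 0.487, 0.274 and 0.471 CPM at 500. All libraries at 100 and 500 lay below all libraries of vehicle and of 20. The shares of all genes that lay wholly lower were 12.2% for 500 against vehicle, 10.8% for 100 against vehicle, 10.7% for 500 against 20 and 4.62% for 100 against 20. The comparison of 500 with 20 gave a log2 fold change of -0.89 (interval -1.45 to -0.32; adjusted p = 0.0796 by edgeR). Glycyrrhizae 500 against 20 had 0 of 7 members called by edgeR and 0 by DESeq2, and 3.85% of all genes called. An unadjusted p under 0.05 was seen for 2 of 7 members and 16.3% of all genes. The abundant genes did not pass here: MT1E had a log2 fold change of -0.23 (interval -0.46 to -0.01; adjusted p = 0.212) against vehicle, MT2A one of -0.14 (interval -0.42 to 0.14) and SLC30A1 one of -0.07 (interval -0.18 to 0.05). Ginseng 500, of the same code set, had 0.292, 0.487 and 0.547 CPM of MT1G. The difference of the dose effects between Glycyrrhizae and Ginseng was called for 0 of 7 members by edgeR and by DESeq2, with 0 at an unadjusted p under 0.05 and 0.0477% of all genes called.

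Paeoniae 500 had the lowest mean of 4 members at once, MT1E, MT2A, MT1X and SLC30A1. MT1E had 77.5 and 62.0 CPM with Paeoniae 500, against 95.5, 95.7 and 99.6 CPM in vehicle, which is -0.47 ± 0.13 on the log2 scale (SE; interval -0.73 to -0.22; adjusted p = 0.129 by edgeR). MT2A had 33.8 and 28.4 CPM, against 44.6, 43.7 and 50.8 CPM in vehicle, a change of -0.57 ± 0.16 (SE; adjusted p = 0.153). Both Paeoniae libraries lay below all vehicle libraries for both genes. MT1X had 2.45 and 1.85 CPM, against 3.67, 2.92 and 2.65 CPM in vehicle, a change of -0.51 ± 0.20 (SE; adjusted p = 0.322). SLC30A1 had 35.7 and 37.7 CPM, against 45.2, 45.7 and 38.9 CPM in vehicle, a change of -0.24 ± 0.07 (SE; adjusted p = 0.142). These 4 genes did not overlap with vehicle, which 14.0% of all genes showed on the low side in this comparison, whereas MT1F and MT1G overlapped with it.

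By edgeR 0 of 7 members were called with Paeoniae 500, where edgeR called 0.161% of all genes. By edgeR 5 of 7 had an unadjusted p under 0.05 (11.3% of all genes did). DESeq2 called 3, MT1E (-0.48, adjusted p = 0.0242), MT2A (-0.58, adjusted p = 0.0381) and SLC30A1 (-0.24, adjusted p = 0.0445). The share of all genes that DESeq2 called is not given here, so these 3 calls have no background beside them. Vehicle replicate 3 had the lowest SLC30A1 of its group, and without it SLC30A1 passed in edgeR too (-0.31, adjusted p = 0.0385). At 100 of Paeoniae the log2 fold changes against vehicle were -0.34 for MT1E, -0.46 for MT2A and -0.07 for SLC30A1. Within the code set, SLC30A1 had 35.7 and 37.7 CPM at 500 against 44.6 and 42.9 CPM at 20, a log2 fold change of -0.25 (interval -0.40 to -0.11) with an unadjusted p of 0.000702 and an adjusted p of 0.736. MT1E fell short of the test as well, with 77.5 and 62.0 CPM at 500 against 81.6 and 86.5 CPM at 20, a log2 fold change of -0.27 (interval -0.54 to 0.01). For Paeoniae 500 against 20, edgeR and DESeq2 called 0 of 7 members, and 0.0358% of all genes were called. An unadjusted p under 0.05 was seen for 1 of 7 members and 3.36% of all genes. The dose effect of Angelicae, the other extract of the code set, was not shown to differ: the difference, Angelicae minus Paeoniae, was 0.19 for SLC30A1 (interval 0.01 to 0.37; adjusted p = 1.0), with 0 of 7 members and 0% of all genes called by edgeR, 0 members by DESeq2 and 1 member at an unadjusted p under 0.05. Of all genes, 2.45% had an unadjusted p under 0.05 for this difference.

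Poria 500 had the highest mean of MT1E and SLC30A1, with a wide spread for the metallothioneins. MT2A had 55.4, 65.2 and 35.5 CPM with Poria 500, against 44.6, 43.7 and 50.8 CPM in vehicle. The libraries with Poria thus stood on both sides of vehicle. MT1E had 99.5, 130 and 93.1 CPM and SLC30A1 42.9, 45.6 and 46.7 CPM. No member passed against vehicle: 0 of 7 were called by edgeR and by DESeq2, 0 had an unadjusted p under 0.05, and 7.49% of all genes were called. Against Poria 20, MT1E had a log2 fold change of 0.25 (interval 0.03 to 0.47; adjusted p = 0.189 by edgeR), MT2A of 0.30 (interval 0.02 to 0.58; adjusted p = 0.226) and SLC30A1 of 0.14 (interval 0.03 to 0.26; adjusted p = 0.146). These 3 of 7 had an unadjusted p under 0.05, as 18.6% of all genes did, while 0 of 7 were called by either tool and 5.51% of all genes were called. Without Poria 500 replicate 3, the low library for MT2A, MT2A passed (0.51, adjusted p = 0.0182), and without Poria 20 replicate 1 SLC30A1 did (0.23, adjusted p = 0.0112).

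In the other extract comparisons with vehicle DESeq2 called 0 members. Its adjusted p was missing for 3 members in most of them and for 4 with Atractylodis 100, so these could not be called. By edgeR 0 of 7 members were called. Between 0 and 2 had an unadjusted p under 0.05, where the share of all genes ran from 4.97% (Poria 20) to 18.3% (Angelicae 20). The share of all genes called was 0% and 0.0417% at 20 and 100 of Poria, 0.137%, 0.364% and 0.250% at 20, 100 and 500 of Atractylodis, and 0.370% and 0.340% at 20 and 100 of Glycyrrhizae. It was 0%, 0% and 0.352% along the doses of Ginseng, 0.173%, 0.00596% and 0.161% along those of Angelicae, and 0% and 0.0477% at 20 and 100 of Paeoniae. The largest changes were those of low genes, such as MT1G with Ginseng 500 at -0.59. Over all 18 extract groups the log2 fold change against vehicle ran from -0.47 to 0.15 for MT1E and from -0.57 to 0.17 for MT2A. The widest intervals for MT1E reached from -0.73 to 0.37, so that a log2 change of 1 in either direction lay outside them. Between 500 and 20 the changes of MT1E ran from -0.27 to 0.25 over the 6 extracts. Those of MT2A ran from -0.30 to 0.30 and those of SLC30A1 from -0.25 to 0.14. No member passed in any of these by edgeR, nor by DESeq2, which gave no adjusted p for MT1F and MT1G with Poria and Glycyrrhizae. For Atractylodis, Ginseng and Angelicae, 0 of 7 members had an unadjusted p under 0.05 between 500 and 20, and 0%, 0% and 0.0179% of all genes were called. The dose effects of Poria and Atractylodis were not shown to differ either. By edgeR 0 of 7 members were called, 0 had an unadjusted p under 0.05 and 0.394% of all genes were called. DESeq2 called 0, with no adjusted p for MT1F, MT1G and MT1X.

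**Figure D3:**
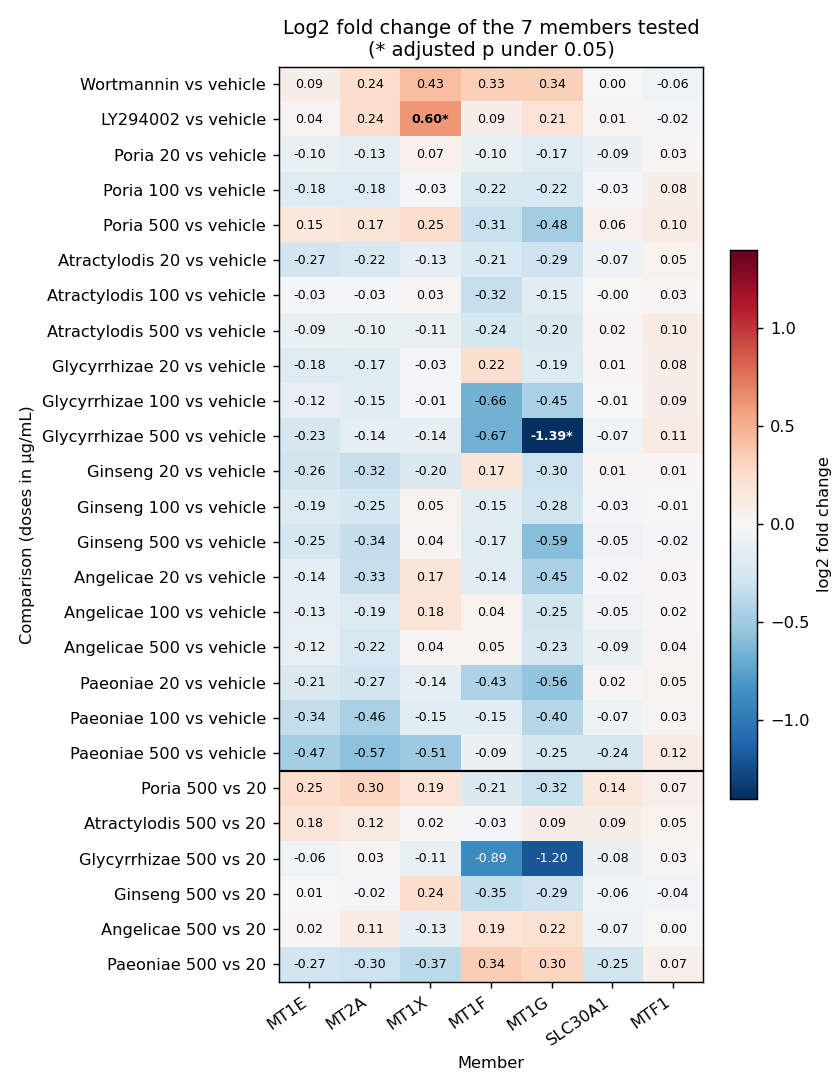
Log2 fold change of the 7 members tested (columns) in 26 comparisons (rows), from the edgeR fit. Above the line stand inhibitors and extract doses against vehicle, and below it 500 against 20 µg/mL of each extract. An asterisk marks an adjusted p under 0.05, which only MT1X with LY294002 (0.60) and MT1G with Glycyrrhizae 500 (-1.39) have.

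The exporter and the zinc sensor were the steadiest members. SLC30A1 ran from 36.7 ± 1.44 CPM with Paeoniae 500 to 45.1 ± 1.97 CPM with Poria 500, a ratio of 1.23, with vehicle at 43.2 ± 3.80 CPM. In its order, 1 of 20 neighbouring pairs did not overlap, which is Paeoniae 500 below Angelicae 500 (40.7 ± 1.62 CPM), as 8.62% of all genes also lay. By dose SLC30A1 averaged 40.8, 42.5 and 45.1 CPM with Poria and 43.8, 41.1 and 36.7 CPM with Paeoniae, in opposite directions, while the means with Glycyrrhizae (43.6, 43.1 and 41.4 CPM), Ginseng (43.6, 42.5 and 41.8 CPM) and Angelicae (42.7, 41.9 and 40.7 CPM) were each lower at a higher dose by less than 3 CPM. Atractylodis gave 41.2, 43.2 and 43.8 CPM. The inhibitors gave 43.2 ± 3.99 CPM (wortmannin) and 43.7 ± 1.59 CPM (LY294002).

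MTF1 ran from 38.2 ± 2.51 CPM with wortmannin to 43.2 ± 0.626 CPM with Paeoniae 500, a ratio of 1.13, and 0 of 20 neighbours differed beyond the larger SD. It was highest in the group in which its targets MT1E, MT2A and SLC30A1 were lowest: MTF1 had 42.8 and 43.6 CPM with Paeoniae 500, against 37.5, 41.7 and 40.3 CPM in vehicle, a log2 fold change of 0.12 (interval 0.002 to 0.233; adjusted p = 0.433 by edgeR). With Glycyrrhizae 500 it had 43.2, 41.5 and 44.5 CPM, which is 0.11 on the log2 scale against vehicle (adjusted p = 0.197), and with Poria 500 42.8, 42.7 and 42.9 CPM, which is 0.10 (adjusted p = 0.235). Over its 20 comparisons with vehicle it stayed between -0.06 and 0.12.

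**Figure D4:**
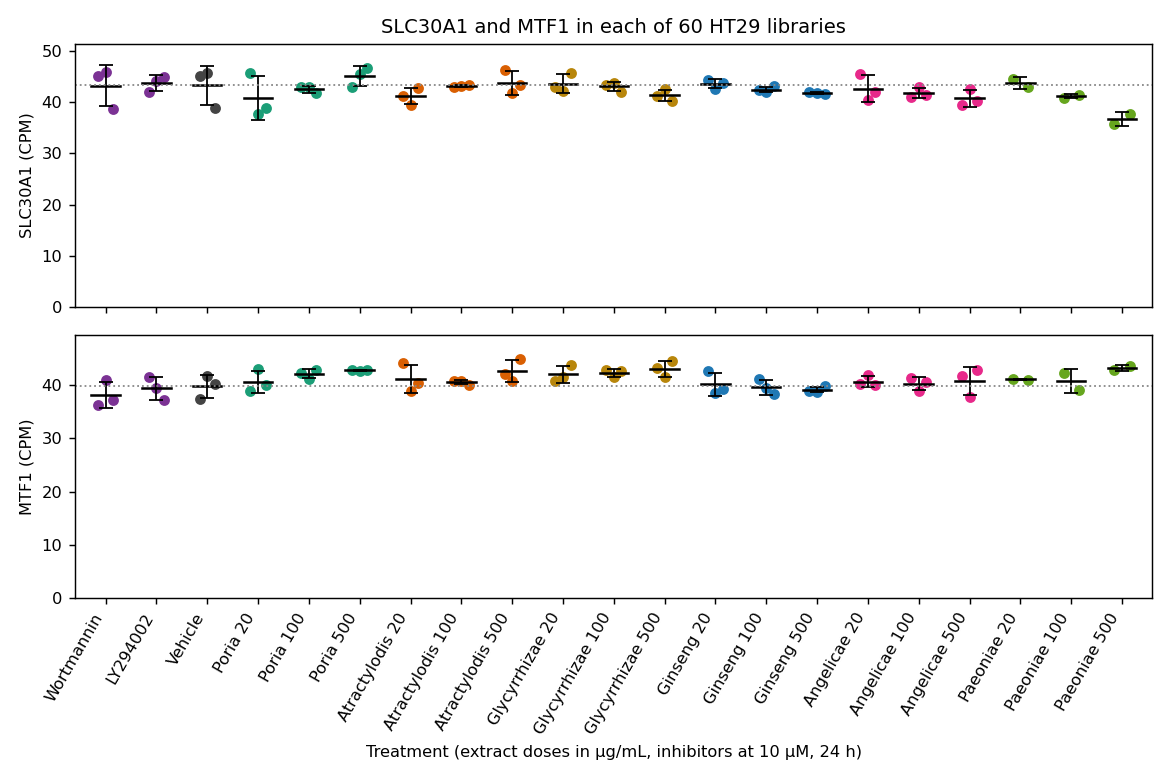
SLC30A1 (top) and MTF1 (bottom) in CPM in each of the 60 libraries (points), with the mean (bar) and SD (whisker) of each group and the mean of vehicle as a dotted line. Both genes keep a narrow band, 35.7 to 46.7 CPM for SLC30A1 and 36.3 to 45.0 CPM for MTF1, and Paeoniae 500 is the lowest group of SLC30A1 and the highest of MTF1.

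Replicates of one treatment differed more in MT1E and MT2A than in most genes of their level. The SD of log2 CPM within groups was 0.147 for MT1E and 0.188 for MT2A, which is larger than that of 98.2% and 98.7% of the genes within 0.5 log2 units of their level, whose medians were 0.0638 and 0.0741. SLC30A1 (0.0685, larger than 39.9%) and MTF1 (0.0599, larger than 18.4%) were ordinary in this respect. The low metallothioneins differed among themselves: MT1X had 0.206 (larger than 67.8% of the genes at its level) and MT1G 0.458 (larger than 80.1%), while MT1F had 0.282, against a median of 0.369 at its level, and was larger than only 5.75%.

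The spread was shared among MT1E, MT2A and MT1X, the metallothioneins compared in this way. MT1F and MT1G were left out of the correlations, so whether they share it was not tested. After subtraction of the group means, MT2A was high in the libraries in which MT1E was high (Pearson r = 0.774, Spearman rho = 0.734, n = 60; permutation within groups, adjusted p = 0.0001 for both, over 10 pairs of genes, from raw p = 1e-05, the smallest that 100000 permutations give). Without the 2 libraries farthest from the median of MT1E, r was 0.722. Within the code sets r was 0.760 (n = 9), 0.794 (n = 18), 0.758 (n = 18) and 0.862 (n = 15). MT1X moved with MT1E (r = 0.598, rho = 0.603; permutation adjusted p = 0.0004 and 0.000333; 0.550 without the 2 farthest libraries) and with MT2A (r = 0.531, rho = 0.574; permutation adjusted p = 0.00035 and 0.0003; 0.576 without them), with r from 0.415 to 0.821 and from 0.386 to 0.753 within code sets.

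**Figure D5:**
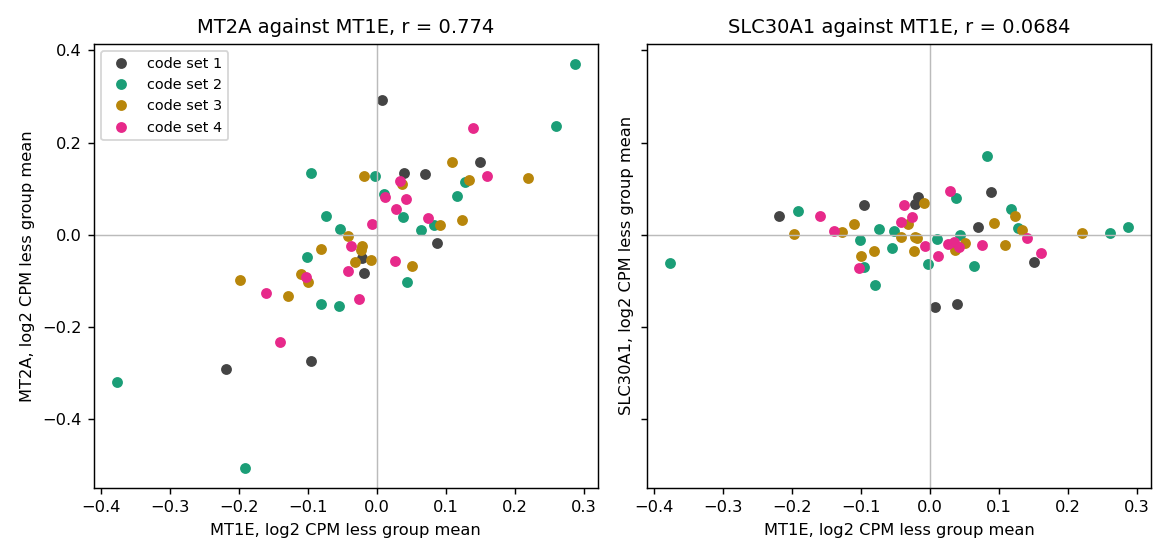
Log2 CPM less the group mean in each of the 60 libraries, MT2A (left) and SLC30A1 (right) on the vertical axis against MT1E on the horizontal axis, with colours for the code sets. MT2A rises with MT1E (r = 0.774), and SLC30A1 stays level (r = 0.0684).

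SLC30A1 and MTF1 were not shown to share that spread over the 60 libraries. For MT1E the correlation was 0.0684 with SLC30A1 (rho = 0.0313; permutation adjusted p = 0.617 and 0.839) and 0.245 with MTF1 (rho = 0.143; permutation adjusted p = 0.332 and 0.519). For MT2A it was -0.240 with SLC30A1 (rho = -0.228; permutation adjusted p = 0.332 and 0.400) and 0.207 with MTF1 (rho = 0.154; permutation adjusted p = 0.373 and 0.519). MT1X (r = 0.142 with SLC30A1 and 0.147 with MTF1) and the pair SLC30A1 and MTF1 (r = -0.164) did not pass either (permutation adjusted p = 0.457 for each r). The code sets differed. For MT1E with MTF1, r was 0.742 in set 1 (n = 9), against 0.178, 0.0293 and 0.193 in sets 2 to 4. For MT2A with SLC30A1, r was -0.739 in set 1, against 0.0734, -0.101 and -0.243. The values within sets were not tested.

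Genes alike to the sum of the metallothionein reads were sought only outside the metallothionein family. Over the 21 group means of log2 CPM and 10653 genes with at least 5 CPM, those most alike included MFSD12 (r = 0.910), which carries cysteine into lysosomes and melanosomes, DPM3 (0.813), a subunit of dolichol-phosphate mannose synthase, and LY6E (0.805), a membrane-anchored surface protein. SLC30A1 had r = 0.680 and MTF1 r = -0.324 with the sum. For SLC30A1 the most alike outside that family were MFSD12 (0.711), the gene ENSG00000258377 (0.672) and ADO (0.644), a thiol dioxygenase. ZFX (0.643), a zinc-finger transcription factor, and CTSB (0.606), the lysosomal protease cathepsin B, followed. Among the metallothioneins, which that search left out, MT1E had r = 0.699, MT2A 0.628 and MT1X 0.545 with SLC30A1. These values describe 21 groups that share library preparation and code sets, and carry no test.

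The other genes of metal handling were counted from 9 lists in the comparisons of the inhibitors, Poria 500, Glycyrrhizae 500 and Paeoniae 500 with vehicle. Their counts are set against the share of all genes called in either direction, which was 13.7% with wortmannin, 39.2% with LY294002, 7.49% with Poria 500, 6.91% with Glycyrrhizae 500 and 0.161% with Paeoniae 500. Counts at an unadjusted p under 0.05 have another background, in the same order 26.1%, 46.6%, 21.3%, 20.3% and 11.3% of all genes. Of 8 further metallothioneins and pseudogenes only MT1A was tested, at 0.693 CPM, and edgeR did not call it in these 5 comparisons. MT1A had 0.335 and 0.443 CPM with Paeoniae 500, against 0.982, 0.411 and 0.884 CPM in vehicle, from counts of 9 and 11 against 23, 10 and 20. The groups overlapped, and the log2 fold change was -0.96 ± 0.40 (SE; interval -1.77 to -0.14; unadjusted p = 0.0221, adjusted p = 0.353 by edgeR), in size the largest of the 6 metallothioneins tested in that comparison. MT3, the metallothionein of brain, had 202 counts in 56 libraries. Of the importers of the SLC39A family, 12 of 14 were tested. With LY294002, 4 of them rose and 3 fell, 7 of 12 against 39.2% of all genes. SLC39A5 rose by 0.64 ± 0.19 (log2 fold change, SE; adjusted p = 0.00506 by edgeR), SLC39A13 by 0.41 ± 0.07 and SLC39A11 by 0.39 ± 0.11, while SLC39A8, which carries zinc, manganese and cadmium, fell to 20.5 ± 1.00 CPM, against 29.9 ± 1.3 CPM in vehicle (log2 fold change -0.55). With wortmannin 4 of 12 were called, against 13.7% of all genes: 3 rose, SLC39A5 by 0.86, SLC39A11 by 0.46 and SLC39A13 by 0.21, and SLC39A9 fell (-0.15). The median over the list was -0.01 with LY294002 and 0.01 with wortmannin, against 0.007 and 0 over all genes.

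Single importers also rose with the extracts. With Poria 500 SLC39A8 rose to 35.2 ± 1.85 CPM, against 29.9 ± 1.3 CPM in vehicle, and with Glycyrrhizae 500 SLC39A6 rose to 75.6 ± 1.36 CPM, against 68.1 ± 2.58 CPM in vehicle. Each was the 1 call among 12, against 7.49% and 6.91% of all genes. Of the SLC30A family beside SLC30A1, 6 of 9 were tested. With LY294002 3 of 6 were called, against 39.2% of all genes: SLC30A6 (-0.22) and SLC30A7 (-0.21), which load zinc into the secretory pathway, fell and SLC30A9, a mitochondrial zinc transporter, rose (0.13). With Glycyrrhizae 500 1 of 6 fell, against 6.91% of all genes called, SLC30A2, a vesicle loader at 0.0529 ± 0.0222 CPM, against 0.242 ± 0.0904 CPM in vehicle (log2 fold change -2.10, adjusted p = 0.0342); it is below the level set for naming and is named here because it is the 1 call. With wortmannin and Poria 500, 0 of 6 were called by edgeR, and 2 and 1 had an unadjusted p under 0.05.

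Genes of heavy metal and proteotoxic stress, such as chaperones and enzymes of glutathione supply, were all tested, 12 of 12. With Poria 500, 6 rose and 1 fell, 7 of 12 against 7.49% of all genes called, with a median of 0.18 against -0.009 over all genes. GCLM, a subunit of the enzyme that starts glutathione synthesis, rose to 113 ± 4.50 CPM, against 63.0 ± 3.52 CPM in vehicle, SLC7A11, the cystine importer, to 257 ± 14.7 CPM, against 146 ± 7.78 CPM, and HMOX1, heme oxygenase, to 19.2 ± 1.56 CPM, against 11.2 ± 0.771 CPM. With Glycyrrhizae 500, 5 of 12 rose and 0 fell, against 6.91% of all genes called, among them GCLM by 0.41 and TXNRD1, thioredoxin reductase, by 0.40, with a median of 0.12 against -0.005. With Paeoniae 500, GCLM was the 1 gene of 12 that rose (0.43, adjusted p = 0.00309 by edgeR), against 0.161% of all genes called. LY294002 lowered 7 and raised 3, 10 of 12 against 39.2% of all genes called, with a median of -0.39: HSPH1, a cochaperone, changed by -0.79, HSPB1 by -0.78 and SLC7A11 by -0.60. Wortmannin lowered 4 of 12, against 13.7% of all genes called, SLC7A11 by -0.40, HSPB1 by -0.39, HSPH1 by -0.29 and GCLM by -0.26, and raised 0, with a median of -0.13.

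Copper and iron genes are handled beside zinc. Of 11 copper genes LY294002 raised 3, the largest CCS, the copper chaperone of superoxide dismutase (0.73), and lowered 3, which is 6 of 11 against 39.2% of all genes called. Wortmannin lowered 1 of 11 (SCO1, -0.15), against 13.7% of all genes, with Poria 500 1 fell (ATP7B, -0.26), against 7.49%, and with Glycyrrhizae 500 edgeR called 0, with 3 at an unadjusted p under 0.05. Of 10 iron genes LY294002 raised 3, the largest SLC40A1, the iron exporter ferroportin (0.72), and lowered 2, the larger TFRC, the transferrin receptor (-0.33), which is 5 of 10 against 39.2% of all genes called. Wortmannin raised 1 of 10, SLC40A1 (0.44), against 13.7% of all genes called. With Poria 500 3 of 10 rose, the ferritin chains FTL (0.33) and FTH1 (0.25) and TFRC (0.22), against 7.49% of all genes called, and with Glycyrrhizae 500 1 fell, HEPH (-0.21), a ferroxidase, against 6.91%. Of 8 glucocorticoid receptor targets 2 fell with LY294002, ERRFI1 (-0.47) and TSC22D3 (-0.31), against 39.2% of all genes called, and 2 with wortmannin, PER1 (-0.33) and ERRFI1 (-0.16), against 13.7%. With Poria 500 ERRFI1 rose (0.36) and TSC22D3 fell (-0.35), against 7.49% of all genes called, and with Glycyrrhizae 500 ERRFI1 rose (0.17), against 6.91%.

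The genes around the metallothionein cluster did not form one direction either. Of 6 tested neighbours at 16q13, 4 were called with LY294002, against 39.2% of all genes, and included BBS2, which rose (0.50), and NUP93 and NUDT21, which fell (-0.39 and -0.22). Wortmannin lowered 1 of 6, NUP93 (-0.14), against 13.7% of all genes called, with Poria 500 1 rose, NUP93 (0.17), against 7.49%, and with Glycyrrhizae 500 edgeR called 0, with 2 at an unadjusted p under 0.05. Of 8 zinc-finger regulators and zinc sensors, LY294002 raised ZNF658 (0.63), a repressor of zinc-responsive genes, and lowered 5, the largest fall being that of CTCF (-0.23), which is 6 of 8 against 39.2% of all genes called. With wortmannin, Poria 500 and Glycyrrhizae 500 edgeR called 0 of these 8, and 3, 1 and 0 had an unadjusted p under 0.05. With Paeoniae 500, the group in which MT1E, MT2A and MT1X were lowest, edgeR called 0 genes of these 9 lists other than GCLM, and an unadjusted p under 0.05 was seen for 5 of 12 stress genes and at most 1 gene of each other list.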

How the data were processed

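Per the labels, strand-marking MGI libraries of messenger RNA were made from RNA with a RIN above 7, and both ends were read over 100 bases. The submitters' processing notes name FastQC 0.11.9, Trim Galore 0.6.5, STAR 2.7.3a and RSEM 1.3.3 with GRCh38. Which gene annotation and which strand setting served for counting is not given in the sources. The authors deposited a table of expected counts from RSEM, without normalisation, by Ensembl gene; it has 273 columns, of which 60 were used and 213 belong to no library used here. Of the values above 0, 24.2% were not whole, and 26276 genes had no count. Symbols were joined by Ensembl ID (41706 genes, 14982 of those tested). The members and the gene lists were chosen with earlier results of these data known.

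Expected counts were rounded, filtered in edgeR 4.0.16 with filterByExpr (at least 10 counts, total at least 15, leaving 16767 genes) and scaled by TMM. The 60 libraries entered 1 quasi-likelihood model with 21 group means and 39 residual degrees of freedom. Benjamini-Hochberg adjustment ran over all 16767 genes within each of the 30 comparisons, and a gene counts as called, rising or falling where the adjusted p is under 0.05. Intervals are 95% intervals of the log2 fold change. DESeq2 1.42.0 was compared for the 7 members tested. Named list genes are called genes with a mean of at least 1 CPM and the largest changes, at most 4 per list and comparison; a few genes that the naming rules chose are not reported here.

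Same-numbered libraries were checked for pairing by their residuals over 9863 genes with mean log2 CPM above 3: every pair exceeded r = 0.1 in 2 of 27 comparisons, wortmannin with vehicle (0.203 to 0.591) and Ginseng 500 with 20 (0.186 to 0.412). Over all 16767 genes tested, every pair did so in 0 of 27 comparisons. Among 57 replicate pairs the lowest median spread was 0.676, against 0.455 under counting noise, so none looked like 1 library deposited again. Alternatives were RLE size factors, no filter, DESeq2, only the libraries compared, a replicate block, and leaving out each library.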

Additional observations from a re-analysis of the deposited data

How the results depend on the processing

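The rise of MT1X with LY294002 passed in all 11 alternatives (log2 fold change 0.51 to 0.75, adjusted p at most 0.0234), whereas the fall of MT1G with Glycyrrhizae 500 passed in 4 of 10 (-1.48 to -1.26), and none of the fold changes followed through the alternatives changed sign. Counts below are members called of 7. The share of all genes called under each alternative is not given here. These counts therefore show how the calls depend on the setting, and are not results about the members. Without the filter on low counts 15 of 30 counts differed, the cause of which was not tested: 2 with LY294002, Glycyrrhizae 500, Ginseng 500, Ginseng 20, Paeoniae 500, Paeoniae 100 and Poria 500 against 20, and 1 with wortmannin, Atractylodis 20, Ginseng 100, Angelicae 500, Angelicae 20, Paeoniae 20, Paeoniae 500 against 20 and the difference of the dose effects of Angelicae and Paeoniae. With only the libraries compared there were 2 with Glycyrrhizae 500, 1 with Angelicae 20 and 1 with Paeoniae 500. The replicate block gave 1 with wortmannin (MT1X) and 1 with Paeoniae 500 (MT1E, -0.49, adjusted p = 0.0468), and changed no other count. DESeq2 gave 3 with Paeoniae 500 and no adjusted p for MT1G with Glycyrrhizae 500, so that count was not compared. RLE size factors changed no count. Leaving out 1 library moved 11 of 191 counts: 0 to 1 with wortmannin, 1 to 2 with LY294002, 0 each time with Glycyrrhizae 500, 0 to 1 with Paeoniae 500 and 0 to 1 for Poria 500 against 20. Where this left 1 Paeoniae library, its spread was assumed to be that of the other groups. The sum of the metallothionein rows gives no call and was used as a description. With 4 to 27 counts per library, MT1F and MT1G limit what can be seen: the median SE of the log2 fold change was 0.275 and 0.375, against 0.11 for MT1E and 0.058 for SLC30A1.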

Other observations

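Some libraries that stood apart from their group were low or high in several metallothioneins at once. Atractylodis 20 replicate 2 had the lowest MT1E of all 60 libraries (60.6 CPM, against 94.4 and 85.4 CPM in the other replicates of its group) and also the lowest of its group for MT2A (31.3 CPM, against 46.0 and 41.4 CPM), MT1X (2.09 CPM, against 3.39 and 2.92 CPM) and MT1G (0.185 CPM, against 0.827 and 0.568 CPM). Its MT1F (0.556 CPM, against 0.602 and 0.530 CPM) and MT1A (0.834 CPM, against 0.790 and 0.833 CPM) were not the lowest of the group. Its SLC30A1 was 39.5 CPM, against 41.3 and 42.8 CPM. Poria 500 replicate 2 had the highest MT1E of all libraries (130 CPM) and the highest MT2A of its group (65.2 CPM), while replicate 3 of that group had the lowest MT2A of the group (35.5 CPM) with an MT1E of 93.1 CPM. In Poria 500 replicate 2, MT1X (3.97 CPM) and MT1G (0.733 CPM) were also the highest of the group. MT1F was the lowest there (0.475 CPM, against 0.526 and 0.579 CPM). These libraries were singled out after their values were seen.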
